A study of Oryza sativa Indica Group with 6 samples.

Results

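Cytochrome P450 enzymes were represented by 131 of the 21495 gene probes of a rice oligonucleotide array, and their RNA levels were followed in leaves of a submergence-tolerant and a susceptible rice before and under water. Probes were taken as P450s where the description paired with the probe in the array files holds "P450", "P-450" or "CYP" with a number. That search returned 136 probes, of which 2 were described as P450 reductases and 3 as cyclophilins, proline isomerases that share the letters Cyp but are no P450s. These 5 are kept apart and given at the end. The plants were FR13A, which tolerates submergence, and IR24, which is susceptible. Each of 6 arrays held leaf RNA of both genotypes in different dyes, with the dyes exchanged between replicates 1 and 2. The arrays form 3 groups of 2: constitutive plants, untreated and harvested 14 days after sowing; plants submerged for 15 min and harvested at 14 days; and plants submerged for 24 h and harvested at 15 days. No group held plants left in air until day 15, so age and 24 h under water cannot be told apart. The labels do not say whether replicates came from separate plants, so p-values measure the spread between these samples, which may be technical.

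P450s are haem enzymes, most of them of the endoplasmic reticulum. Typically they insert an oxygen atom from molecular oxygen into their substrates, using electrons that a reductase passes on from NADPH. In plants they act in the synthesis and breakdown of hormones, in sterol, fatty acid, lignin and flavonoid synthesis, in defence chemistry and in the detoxification of herbicides. Families are numbered after CYP by sequence similarity, and members of the same family often, but not always, act on related substrates.

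A family was named in the description of 47 P450 probes. Counts by family or role take in these and 2 probes described as OsDWARF. Probes named by an Arabidopsis locus are therefore in none of those counts, whatever their family. A rice sequence described 29 probes. The remaining descriptions borrow the name of a similar gene from a different plant, which is marked by the word "like". The 131 probes carried 58 distinct descriptions, so different probes can carry the same name, and the part of hybridisation to RNA of a related P450, or of bases that differ between FR13A and IR24 under a probe, was not tested. Of the 131 probes, 122 passed the filter, which asked for a signal well above background in either dye on 2 or more arrays, 91 had one in all 12 channels, and 9 were left out as too dim, 6 of them never above background. No P450 probe was saturated. The labelled tissue, leaf, was borne out by the intensity of 38 photosynthesis probes, with a median log2 of 10.54 to 12.29 over the channels. It was 6.32 to 7.22 for root, 6.41 to 6.86 for seed storage and 6.59 to 7.82 for pollen probes. Well above background in all 12 channels were 36 of the 38, beside 4 of 9 root, 7 of 11 seed storage and 5 of 9 pollen probes. Over the arrays, 85.4% to 92.2% of gene probes were well above background in Cy3 and 81.8% to 95.3% in Cy5, and the number of arrays limits the precision.

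Differences between the genotypes were measured within each array as the log2 ratio of FR13A over IR24, after background correction and loess normalisation, and are given with the standard error (SE) of a limma fit. A probe was called where its p-value, adjusted by the Benjamini-Hochberg method over all kept probes, was under 0.05. Averaged over the 3 times, 26 P450 probes were higher and 11 lower in FR13A than in IR24, of 122 measured. These make up 30.3% of the P450 probes, where 20.2% of all tested probes were called (10.1% higher and 10.1% lower), and the median log2 ratio was 0.0385 over the P450s and -0.00439 over all probes. With the processed signals these medians were 0.122 and 0.00574, and with median centring 0.108 and 0.0151. In leaf RNA as a whole, fewer cells of a type and less RNA per cell cannot be told apart. Without replicate 2 of the 15 min arrays 22 P450 probes were called, and without replicate 2 of the 24 h arrays 24 were. With each array centred on its median in place of loess, 4 were higher and 6 lower, all 10 among those called with loess. The 4 were AK106424, AK103336, AK100987 and AK060486, and the 6 were AK067543, AK067905, AK068170, AK065238, AK099637 and AK108512. The share of all probes called with median centring is not given, so whether the P450 share was above it there is not known.

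The strongest difference in favour of FR13A was at AK106424, a probe like the Arabidopsis gene At1g64950. Its log2 ratios were 3.31 and 2.86 in constitutive plants, 2.21 and 3.21 at 15 min and 0.54 and 0.62 at 24 h. All 6 arrays were above 0. At 24 h the probe was well above background in neither IR24 channel, so both 24 h ratios are lower bounds and are not ranked against the earlier ones. The average over the 6 arrays, which takes the 24 h ratios as measured, was 2.12 ± 0.14 (SE, adjusted p = 0.000502), or 4.36-fold. It was 3.50 with the processed signals of the scanner software, which add no offset to dim spots and were used without loess. In constitutive plants alone it was 3.09 ± 0.24 (adjusted p = 0.00292), or 8.49-fold, and 0.0732 was the adjusted p without constitutive replicate 1. At 24 h the level in FR13A was at least 1.49-fold higher (adjusted p = 0.257).

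The strongest difference the other way was at AK067543, like the soybean gene CYP71D10. Its log2 ratios were -1.81 and -2.44 in constitutive plants, -1.79 and -2.09 at 15 min and -2.53 and -2.78 at 24 h. FR13A was thus lower on all 6 arrays. The average was -2.24 ± 0.10 (adjusted p = 0.000144), a level 4.73-fold lower in FR13A than in IR24, and each of the 3 times passed on its own. CYP71, the family of this probe, is large in grasses and holds enzymes of terpenoid and benzoxazinoid synthesis. Over the CYP71 and CYP92 families together, 3 of 15 measured probes were higher and 2 lower in FR13A, where 10.1% of all probes were called each way. The higher ones included AK071599, like CYP71A1, at 0.60 (adjusted p = 0.00268), and AK100987, like CYP92A1, at 0.85 ± 0.07 (adjusted p = 0.00287). At 24 h AK100987 had a value on 1 array only, since its spot on the other was marked by the scanner software. AK108512, a second probe like CYP71A1, was lower in FR13A at -0.69 (adjusted p = 0.00239), so probes of the same description differed in direction.

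**Figure D1:**
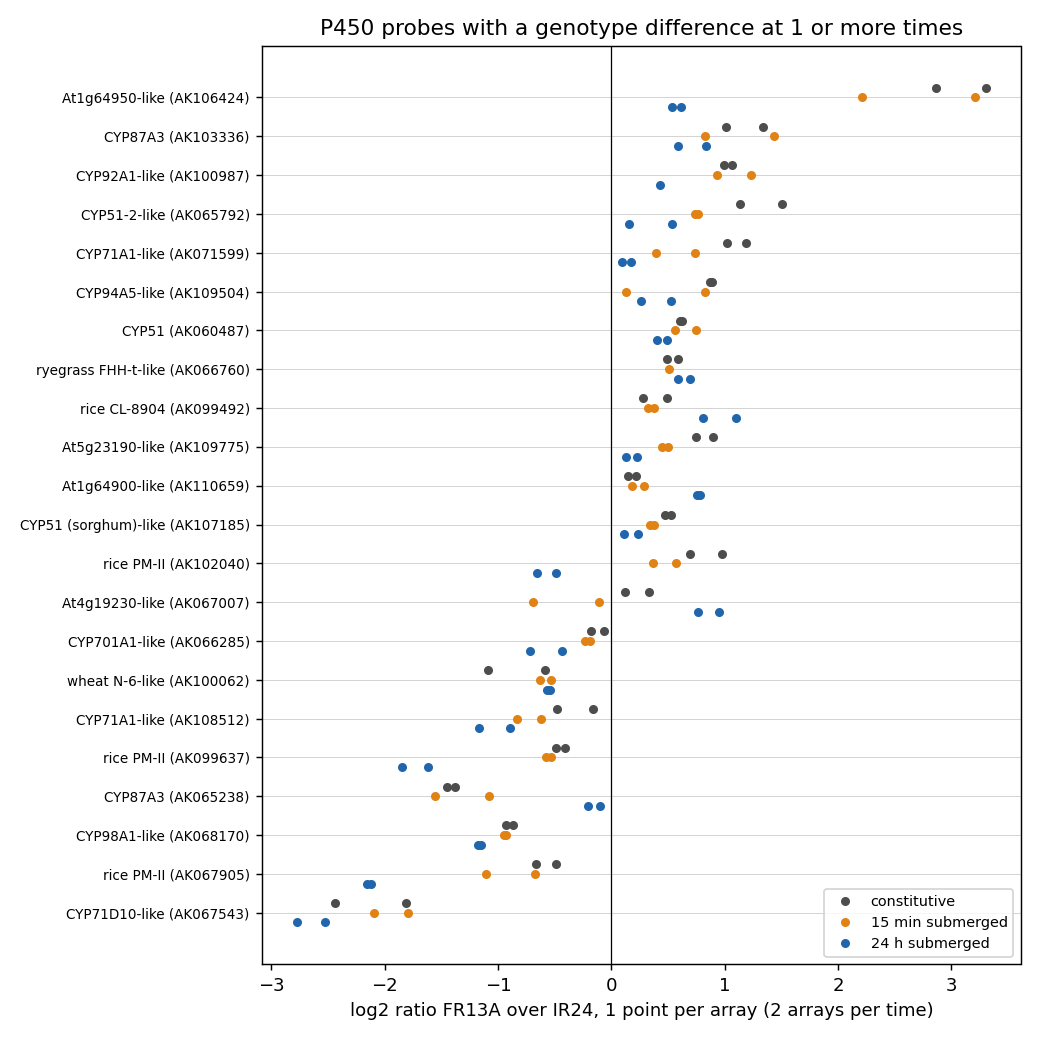
The 22 P450 probes called between the genotypes at 1 or more single times, with the log2 ratio of FR13A over IR24 on the horizontal axis and 1 point per array, coloured by time. Points right of 0 are higher in FR13A; AK106424 lies right of 0 on every array, with lower bounds at 24 h, and AK067543 lies left of -1.7 on every array.

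The names CYP51, CYP701, CYP90 and OsDWARF, grouped here under sterol and hormone synthesis, covered 9 measured probes. Of these 3 were higher and 1 lower in FR13A, beside 10.1% of all probes in each direction. The 3 higher ones were all of the probes described as CYP51, the sterol 14-demethylase that acts early in the synthesis of membrane sterols and so upstream of brassinosteroids. AK060487, described as CYP51, had ratios of 0.60 and 0.62 in constitutive plants, 0.56 and 0.74 at 15 min and 0.40 and 0.49 at 24 h. The 6 arrays gave similar values, with an average of 0.57 ± 0.05 (adjusted p = 0.00133), and each time passed on its own. With scan day as a block its constitutive and 24 h calls ended (adjusted p 0.0714 and 0.0581), and with the processed signals the 24 h call (adjusted p = 0.127). AK065792, like CYP51-2 of tobacco, had 1.14 and 1.51, then 0.74 and 0.76, then 0.15 and 0.54 in the same order of times. Its average was 0.81 ± 0.08 (adjusted p = 0.00185), with no overlap between the 3 times. AK107185, like the sorghum CYP51, averaged 0.35 ± 0.05 (adjusted p = 0.00625). With median centring in place of loess none of these 3 calls was kept, and with the processed signals AK065792 had 2.19 and AK107185 had 0.92. The probe lower in FR13A was AK066285, like CYP701A1, the ent-kaurene oxidase of gibberellin synthesis, at -0.30 (adjusted p = 0.0191), or -0.70 with the processed signals, a call that ended without any array other than 24 h replicate 1 (adjusted p 0.0522 to 0.0719). AK101670, described as OsDWARF, the brassinosteroid C6-oxidase, had 0.06 (adjusted p = 0.691), and AK060257, like CYP90A2 of brassinosteroid synthesis, had -0.09 (adjusted p = 0.515).

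The families CYP78, CYP86 and CYP94, grouped here under fatty acids, had 3 of 10 measured probes higher and 0 lower in FR13A. This again stands beside 10.1% of all probes in each direction. These were AK109504, like CYP94A5, at 0.58 ± 0.10 (adjusted p = 0.013), or 1.095 with the processed signals, AK106001, like CYP86, at 0.44, and AK070931, like CYP94A4, at 0.44. The last 2 calls each ended without constitutive replicate 1, 15 min replicate 2 or either 24 h array, and that of AK106001 also without 15 min replicate 1 (adjusted p 0.0522 to 0.119). For AK109504 the adjusted p was 0.0607 without constitutive replicate 1, 0.0574 without constitutive replicate 2 and 0.055 without 24 h replicate 2. In lignin synthesis, 2 probes were like CYP98A1, the hydroxylase of coumaroyl shikimate. AK068170 was lower in FR13A with ratios of -0.93 and -0.87 in constitutive plants, -0.93 and -0.95 at 15 min and -1.18 and -1.15 at 24 h. The 6 arrays lay close together, with an average of -1.001 ± 0.05 (adjusted p = 0.000149), or -1.89 with the processed signals, and it passed at each time. AK099695, with the same description, was higher at 0.68 ± 0.15 (adjusted p = 0.0292), a call that ended without any one of the 15 min or 24 h arrays (adjusted p 0.053 to 0.0952). AK104994, like CYP73, the cinnamate hydroxylase that acts before CYP98, had -0.57 (adjusted p = 0.29).

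At single times fewer probes passed. In constitutive plants 11 were higher and 4 lower in FR13A, or 12.3% of 122 where 6.15% of all probes were called (3.17% higher and 2.98% lower). After 15 min these counts were 6 and 6, or 9.84% against 5.33% of all probes (2.42% higher and 2.91% lower), and after 24 h they were 5 and 7, or 9.84% against 7.63% (3.49% higher and 4.14% lower). With median centring 1, 1 and 3 were called at the 3 times, of which 1, 1 and 0 were higher. These, too, have no share of all probes in that setting to stand beside. The constitutive count was 1 without constitutive replicate 1 and 5 without replicate 2. The 15 min count was 4 without 15 min replicate 2 and 6 or 7 without any other array, and the 24 h count was 5 without 24 h replicate 1 and 4 without replicate 2. In all, 22 probes were called at 1 or more times, 3 of them at each time: AK060487, AK067543 and AK068170. The matching shares of all probes are not given, so these 2 counts are not compared with the whole array. A single probe, AK102040, described as rice PM-II, was called in opposite directions. Its ratios were 0.97 and 0.69 in constitutive plants, 0.57 and 0.37 at 15 min and -0.48 and -0.65 at 24 h, so it was higher in FR13A before submergence (0.83, adjusted p = 0.0149) and lower after 24 h (-0.57, adjusted p = 0.0401). With the processed signals the constitutive ratio was 2.34, and the 24 h ratio was -0.82 and not called (adjusted p = 0.253). Its constitutive call ended without either constitutive array (adjusted p 0.0662 and 0.168), and its 24 h call without each array in turn (adjusted p 0.0543 to 0.291). Of the called probes at single times, 1 of 15 in constitutive plants, 3 of 12 at 15 min and 4 of 12 at 24 h kept their call without each array in turn.

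Changes over time lie between arrays, so they were fitted on the single channels after normalisation between arrays, in log2 intensity. This fit held 117 P450 probes, since 5 of the 122 had a spot marked by the scanner software. After 15 min under water 1 P450 probe was called in FR13A, 0.855% where 1.57% of all probes were called (1.27% higher and 0.291% lower). In IR24 2 were called, 1.71% where 2.08% of all probes were (1.89% higher and 0.19% lower). The FR13A count was 0 without constitutive replicate 2 (8 at an unadjusted p under 0.05 in limma) and 2 without either 15 min array, and the IR24 count was 1 without any array other than 15 min replicate 1. The probe called in both was AK067007, like the Arabidopsis gene At4g19230. In FR13A its log2 intensities were 10.41 and 10.08 in constitutive plants, 13.90 and 13.81 at 15 min and 12.07 and 11.20 at 24 h. In IR24 they were 10.29 and 9.75, then 14.59 and 13.92, then 11.31 and 10.25. In both genotypes the 15 min channels lay above all others. The rise at 15 min was 3.61 ± 0.35 in FR13A (adjusted p = 0.00143), or 12.2-fold, and 4.23 ± 0.35 in IR24 (adjusted p = 0.000502), or 18.8-fold. Without constitutive replicate 2 the FR13A call ended (3.44, adjusted p = 0.063), while its IR24 call passed without each array in turn.

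From 15 min to 24 h AK067007 fell by 2.22 in FR13A (adjusted p = 0.00369) and fell by 3.47 in IR24 (adjusted p = 0.000358). At 24 h it was still 1.39 above constitutive plants in FR13A (adjusted p = 0.0343), with 0.76 in IR24 (adjusted p = 0.253). The FR13A value lost its call without constitutive replicate 1, constitutive replicate 2 or 24 h replicate 1 (adjusted p 0.113 to 0.22), and with scan day as a block it was 0.83 (adjusted p = 0.162). Within the arrays its log2 ratio of FR13A over IR24 was 0.12 and 0.33 in constitutive plants, -0.69 and -0.11 at 15 min and 0.76 and 0.95 at 24 h. FR13A was higher at 24 h (0.86, adjusted p = 0.0327), a call that ended without either constitutive or either 24 h array (adjusted p 0.0726 to 0.249). The other probe that passed at 15 min in IR24 was AK072163, like CYP78A9, a family whose members promote organ growth in Arabidopsis. It fell by 0.96 ± 0.20 in IR24 (adjusted p = 0.0429), with -0.91 ± 0.20 in FR13A (adjusted p = 0.0645). The IR24 call ended without any array other than 15 min replicate 1, with an adjusted p of up to 0.299.

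After 24 h under water, 5 P450 probes rose and 17 fell in FR13A relative to constitutive plants, and 7 rose and 14 fell in IR24, of 117. Those called were 18.8% in FR13A, where 10.4% of all probes were called, and 17.9% in IR24, where 9.43% were. The fallen ones were 14.5% of the P450 probes in FR13A, against 5.9% of all probes, and 12% in IR24, against 4.64%. The risen ones were 4.27% in FR13A, against 4.46% of all probes, and 5.98% in IR24, against 4.79%. The median change was -0.146 over the P450s and -0.00655 over all probes in FR13A, and -0.0875 and -0.00294 in IR24. With the processed signals it was -0.312 and -0.00627 in FR13A, and -0.171 and -0.00572 in IR24. Without constitutive replicate 1 the counts were 12 in FR13A and 11 in IR24, and without 24 h replicate 1 they were 13 and 12. Without constitutive replicate 2 the FR13A count was 13. Arrays were scanned on 3 days. On the day that held a constitutive and a 24 h array, with opposite dyes, the median change of the P450s was -0.126 in FR13A and -0.0786 in IR24, and both arrays also enter the calls above. Blocking on scan day, 16 probes were called in FR13A and 21 in IR24, of which 15 and 19 were among those called without it.

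The lists of the genotypes overlapped: 3 probes rose in both, or 60% of those that rose in FR13A and 42.9% of those in IR24, and 11 fell in both, or 64.7% and 78.6%. Over all probes these shares were 68.7% and 64% of the risen and 59.2% and 75.3% of the fallen. The genotypes shared arrays, so their changes are not independent. Relative to 15 min instead of constitutive plants, 5 rose and 18 fell in FR13A (19.7% called, against 11.6% of all probes, of which 4.91% higher and 6.71% lower). In IR24 7 rose and 18 fell (21.4%, against 10.1%, of which 4.16% higher and 5.98% lower). Of the 18 that fell in each genotype 17 were shared, or 94.4%, where over all probes 69.8% of the FR13A list and 78.3% of the IR24 list were. Without 24 h replicate 1 these counts were 12 in FR13A and 14 in IR24, and without 24 h replicate 2 they were 15 and 13.

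**Figure D2:**
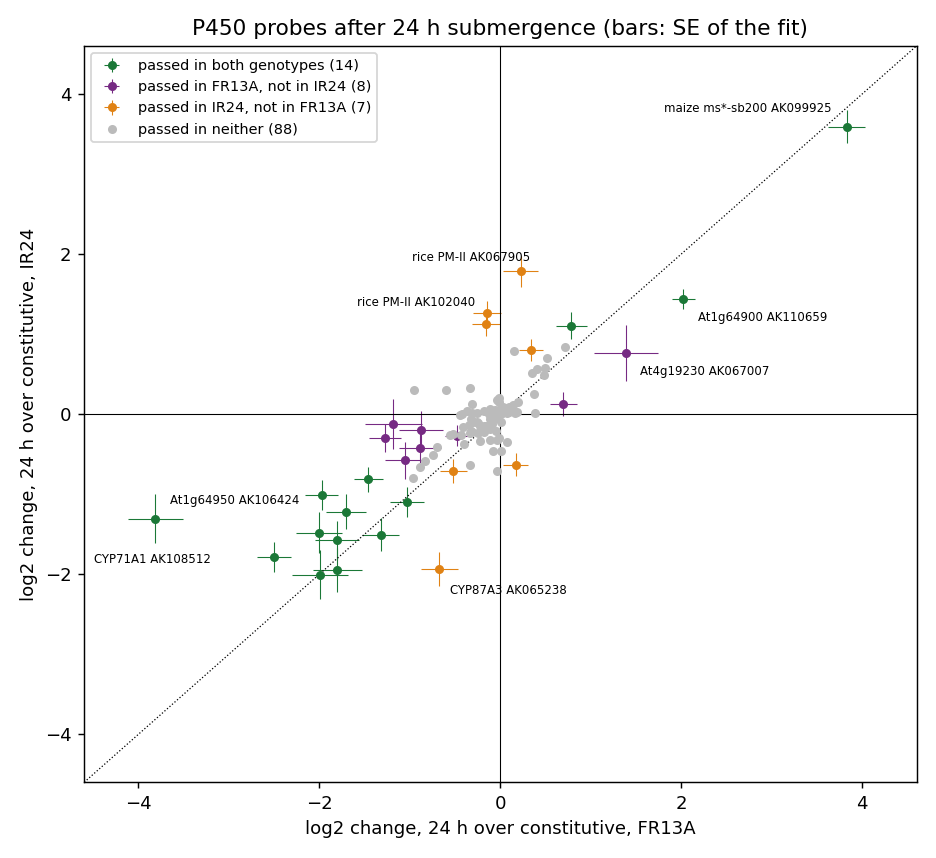
Log2 change at 24 h over constitutive plants in FR13A (horizontal) and IR24 (vertical) for 117 P450 probes, with the SE of the fit as bars on called probes and the line of equal change dotted. Colours give the 14 probes called in both genotypes, 8 in FR13A and not in IR24, 7 in IR24 and not in FR13A, and 88 in neither.

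The largest rise at 24 h among the P450 probes was at AK099925, like a maize P450 gene named ms*-sb200. FR13A had log2 intensities of 7.77 and 7.87 in constitutive plants, 7.94 and 8.18 at 15 min and 11.92 and 11.38 at 24 h. IR24 had 8.27 and 8.097, then 8.57 and 8.33, then 11.86 and 11.68. The 24 h channels stood clear of all earlier ones in both genotypes, which overlapped at 24 h. The rise was 3.83 ± 0.21 in FR13A (adjusted p = 1.21e-05), or 14.2-fold, and 3.59 ± 0.21 in IR24 (adjusted p = 1.91e-05), and both calls held without each array in turn.

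AK110659, like the Arabidopsis gene At1g64900, also rose in both. FR13A had 8.25 and 8.38 in constitutive plants, 8.38 and 8.34 at 15 min and 10.41 and 10.26 at 24 h, and IR24 had 8.04 and 8.23, then 8.201 and 8.05, then 9.63 and 9.51. The 2 genotypes did not overlap at 24 h. The rise was 2.02 ± 0.13 in FR13A (adjusted p = 3.41e-05), or 4.06-fold, and 1.43 ± 0.13 in IR24 (adjusted p = 0.000182), or 2.70-fold. Within the arrays the ratio was 0.77 in favour of FR13A at 24 h (adjusted p = 0.00539). That call ended without either 24 h array, with adjusted p of 0.0586 and 0.0755. Another probe that rose in FR13A, AK099492, described as rice CL-8904, changed by 0.69 (adjusted p = 0.018) with 0.13 in IR24. Its call ended without either constitutive array or 24 h replicate 2 (adjusted p 0.107 to 0.183).

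**Figure D3:**
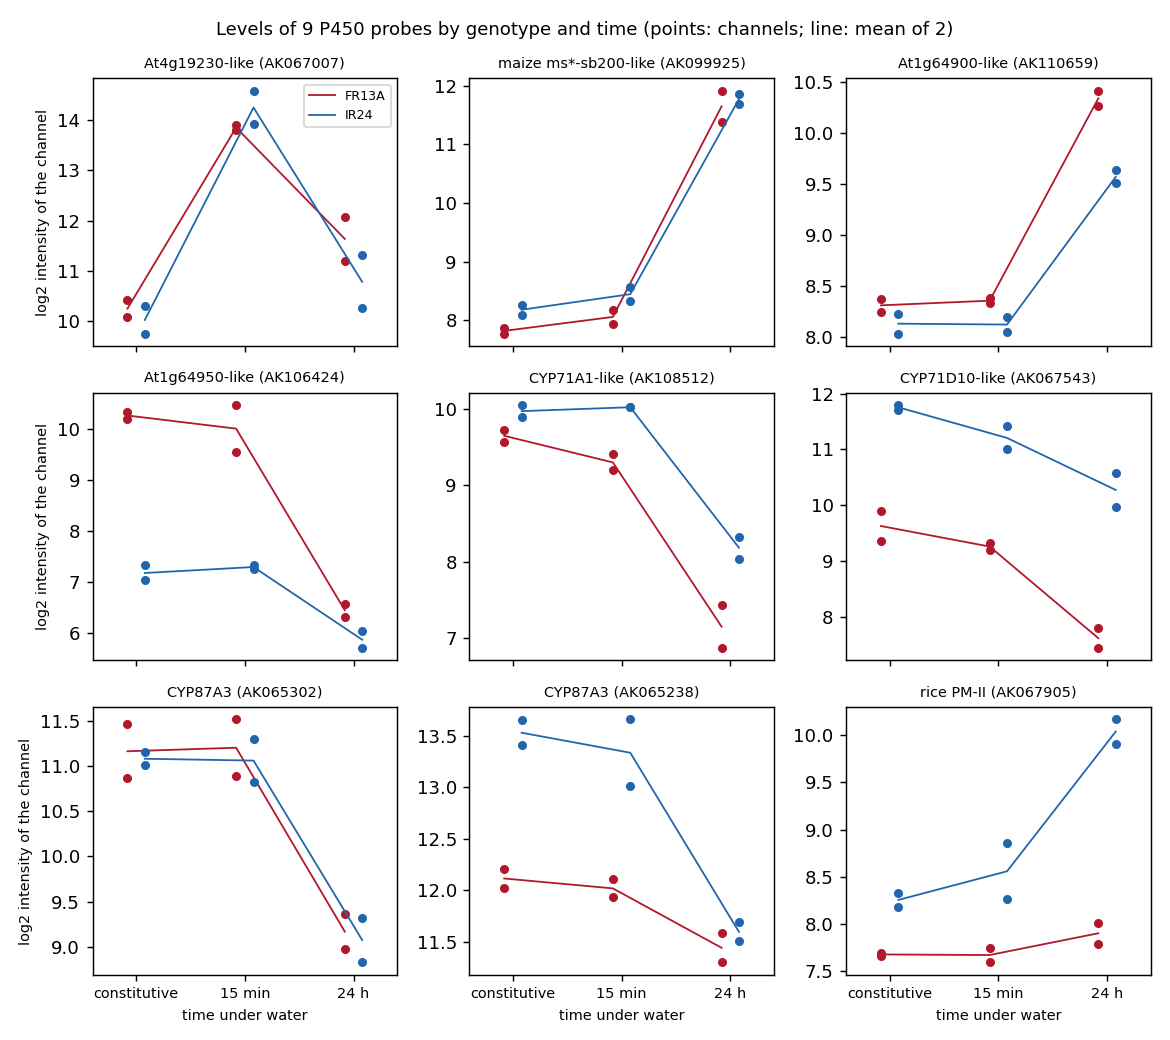
Log2 intensity of 9 P450 probes in FR13A and IR24 in constitutive plants, after 15 min and after 24 h, with 1 point per channel and a line through the mean of 2 channels; each panel has its own vertical scale. AK067007 peaks at 15 min, AK099925 and AK110659 are high at 24 h, and AK067905 is high at 24 h in IR24.

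Among the probes that fell at 24 h, AK106424, like At1g64950 and the one with the strongest genotype difference, had the largest change in FR13A. FR13A had 10.34 and 10.20 in constitutive plants, 9.55 and 10.48 at 15 min and 6.58 and 6.33 at 24 h. IR24 had 7.04 and 7.33, then 7.34 and 7.27, then 6.04 and 5.71. The change in FR13A was -3.82 ± 0.30 (adjusted p = 0.000108), a level 14.1-fold lower, and the call held without each array in turn. In IR24, where the 24 h channels were not well above background, the level was at least 2.48-fold lower than in constitutive plants (adjusted p = 0.0267). The IR24 call ended without either constitutive or either 24 h array (adjusted p 0.112 to 0.256).

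Terpenoid and defence families CYP71 and CYP92 had 5 of 14 measured probes fall in FR13A and 4 of 14 in IR24, and 0 rise in either, where 5.9% and 4.64% of all probes fell. AK108512, like CYP71A1, had 9.73 and 9.57 in constitutive FR13A, 9.19 and 9.40 at 15 min and 6.87 and 7.43 at 24 h. IR24 had 9.89 and 10.05, then 10.02 and 10.02, then 8.04 and 8.32. FR13A was below IR24 at all 3 times, and the change was -2.50 ± 0.19 in FR13A (adjusted p = 8.76e-05) beside -1.79 ± 0.19 in IR24 (adjusted p = 0.000502).

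The other CYP71A1-like probe called at 24 h, AK071599, fell by 1.98 in FR13A (adjusted p = 0.000266) and fell by 1.01 in IR24 (adjusted p = 0.00876). AK067543, like CYP71D10, had 9.90 and 9.36, then 9.20 and 9.32, then 7.44 and 7.80 in FR13A over the 3 times. In IR24 it had 11.71 and 11.79, then 11.00 and 11.41, then 9.97 and 10.57. All IR24 channels lay above all FR13A channels, and the change was -2.01 ± 0.25 in FR13A (adjusted p = 0.00116) and -1.48 ± 0.25 in IR24 (adjusted p = 0.00587). AK107418, like CYP71D4, fell by 1.32 in FR13A and fell by 1.51 in IR24 (-2.91 and -3.30 with the processed signals). AK067200, like CYP71C4, a family member of benzoxazinoid synthesis in maize, fell by 1.05 in FR13A (adjusted p = 0.0186), with -0.58 in IR24 (adjusted p = 0.175), and the FR13A call ended without either constitutive or either 24 h array (adjusted p 0.0952 to 0.188). Leaving out 24 h replicate 1 ended the calls of AK107418 in FR13A (adjusted p = 0.0592) and of AK067543 in IR24 (adjusted p = 0.11). For AK071599 in IR24 the call ended without either constitutive or either 24 h array (adjusted p 0.0514 to 0.147).

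CYP87A3 is a rice P450 known from coleoptiles, where its transcript responds to auxin, and 6 probes carried its description. Of these 1 was too dim, and 3 of the 5 measured fell at 24 h in each genotype, not the same 3. Of all probes, 5.9% fell in FR13A and 4.64% in IR24. AK065302 had 11.46 and 10.87, then 10.89 and 11.52, then 9.36 and 8.97 in FR13A, and 11.15 and 11.01, then 10.83 and 11.29, then 8.83 and 9.32 in IR24. The genotypes overlapped at each time, and the change was -1.996 ± 0.31 in FR13A (adjusted p = 0.00346) and -2.01 ± 0.31 in IR24 (adjusted p = 0.00344). AK060292 fell by 1.80 ± 0.27 in FR13A (adjusted p = 0.00299) and fell by 1.95 ± 0.27 in IR24 (adjusted p = 0.00205). Without constitutive replicate 1 the FR13A calls of AK065302 and AK060292 ended, with adjusted p of 0.0588 and 0.0523.

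A second pair of CYP87A3 probes differed between the genotypes. AK065238 had 12.20 and 12.02 in constitutive FR13A, 11.93 and 12.11 at 15 min and 11.30 and 11.58 at 24 h, and IR24 had 13.65 and 13.41, then 13.01 and 13.66, then 11.50 and 11.69. The genotypes were apart at the first 2 times and overlapped at 24 h. The level fell by 1.94 ± 0.21 in IR24 (adjusted p = 0.000504), with -0.67 ± 0.21 in FR13A (adjusted p = 0.0732). Within the arrays AK065238 was lower in FR13A by a log2 ratio of -1.42 ± 0.13 in constitutive plants (adjusted p = 0.00433), with -0.15 at 24 h (adjusted p = 0.585). AK103336, under the same name, had ratios of 1.34 and 1.01, then 0.83 and 1.43, then 0.59 and 0.84. It was higher in FR13A on all 6 arrays, at 1.01 ± 0.10 on average (adjusted p = 0.00194). Its change at 24 h was -0.89 in FR13A (adjusted p = 0.0412) and -0.42 in IR24 (adjusted p = 0.354), and the FR13A call ended without either constitutive or either 24 h array (adjusted p 0.139 to 0.322). The constitutive call of AK065238 ended without either constitutive array, with adjusted p of 0.0973 and 0.0573, and with scan day as a block (adjusted p = 0.0565).

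PM-II is the name of a rice P450 monooxygenase carried by 11 probes, all of them measured. At 24 h 4 of these rose in IR24 and 1 in FR13A, and 0 fell. Of all probes, 4.79% rose and 4.64% fell in IR24, and 4.46% rose and 5.9% fell in FR13A. AK067905 had 7.66 and 7.69 in constitutive FR13A, 7.75 and 7.59 at 15 min and 7.79 and 8.01 at 24 h, against 8.33 and 8.18, then 8.86 and 8.26, then 9.91 and 10.17 in IR24. The IR24 channels at 24 h lay above all others, with a rise of 1.78 ± 0.19 (adjusted p = 0.000534), or 3.44-fold, and 0.22 in FR13A (adjusted p = 0.569). Within the arrays its log2 ratio was -0.67 and -0.49, then -1.10 and -0.67, then -2.12 and -2.16, so FR13A was 4.40-fold lower at 24 h (-2.14 ± 0.13, adjusted p = 0.000795).

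Another 2 PM-II probes rose in IR24 and were not called in FR13A. AK099637 rose by 1.12 ± 0.15 in IR24 (adjusted p = 0.00182), with -0.16 in FR13A, and its ratio at 24 h was -1.73 ± 0.09 (adjusted p = 0.000615). AK102040 rose by 1.26 ± 0.15 in IR24 (adjusted p = 0.00102), or by 3.04 with the processed signals, with -0.15 in FR13A. AK072861 rose in both, by 0.78 in FR13A (adjusted p = 0.0194) and by 1.11 in IR24 (adjusted p = 0.00373). The FR13A call of AK072861 ended without either constitutive or either 24 h array (adjusted p 0.0568 to 0.192), and its IR24 call without constitutive replicate 1 (adjusted p = 0.0627) or 24 h replicate 2 (adjusted p = 0.0625). The 24 h ratio calls of AK067905 and AK099637 held without each array in turn, and also with median centring.

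**Figure D4:**
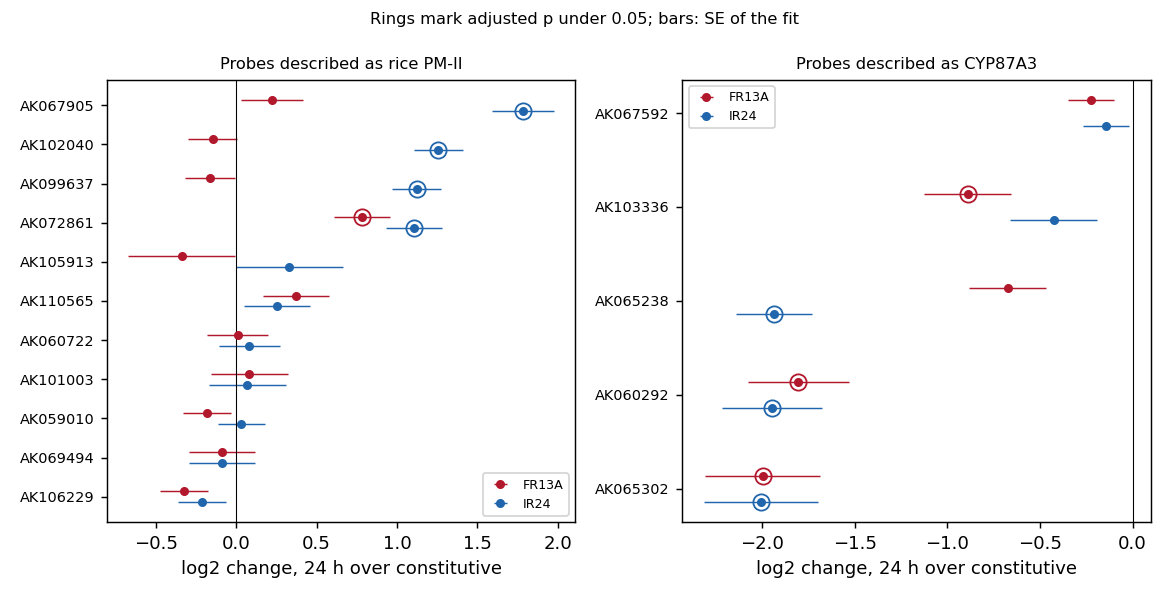
Log2 change at 24 h over constitutive plants, in FR13A and IR24, for the 11 probes described as rice PM-II (left) and the 5 measured probes described as CYP87A3 (right), with the SE of the fit as bars and rings around called values. In the left panel 4 IR24 values and 1 FR13A value are ringed, all above 0, and in the right panel 3 of each genotype, all below 0.

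Whether the genotypes differed in their change over time was tested directly as the change of the within-array ratio. No P450 probe passed this limma test for constitutive to 15 min, constitutive to 24 h or 15 min to 24 h, where 0%, 0.108% and 0.0838% of all probes passed. At an unadjusted p under 0.05 there were 5, 22 and 15 of 122, or 4.1%, 18% and 12.3%, where 2.11%, 6.96% and 5.71% of all probes were under it. The smallest adjusted p was 0.0667, for AK099637 from constitutive to 24 h (-1.29 ± 0.13). AK102040 had -1.40 ± 0.16 (adjusted p = 0.078) and AK067905 -1.56 ± 0.18 (adjusted p = 0.0787), so 3 PM-II probes had the smallest adjusted p among the P450s for that change. AK065238 had 1.26 ± 0.18 (adjusted p = 0.138). For AK106424 no change of the ratio is given, since its 24 h ratio is a bound. A probe called at 24 h in one genotype and not in the other is therefore not shown to differ between them.

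Of the 9 probes grouped by description under sterol and hormone synthesis, 0 rose and 1 fell at 24 h in FR13A, and 1 rose and 0 fell in IR24. Of all probes, 4.46% rose and 5.9% fell in FR13A, and 4.79% and 4.64% in IR24. AK067007, named by an Arabidopsis locus, was not among the 9. The probe that fell was AK065792, like CYP51-2, by 1.28 ± 0.18 in FR13A (adjusted p = 0.00203), or -2.41 with the processed signals, with -0.30 in IR24 (adjusted p = 0.401). The one that rose was AK066285, like CYP701A1 of gibberellin synthesis, by 0.80 in IR24 (adjusted p = 0.00541), or 1.67 with the processed signals, with 0.34 in FR13A; without constitutive replicate 1 its adjusted p was 0.0816, and without 24 h replicate 1 it was 0.0505. AK060257, like CYP90A2, fell from 15 min to 24 h by 0.91 in FR13A (adjusted p = 0.0141, and 0.055 with a dye term) and fell by 1.25 in IR24 (adjusted p = 0.00282, and 0.0676 without 24 h replicate 2). The 2 probes described as OsDWARF passed no comparison over time.

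Of the 10 measured probes described by the families CYP78, CYP86 or CYP94, 2 fell in FR13A and 1 in IR24 at 24 h. Of all probes, 5.9% fell in FR13A and 4.64% in IR24. Probes named by an Arabidopsis locus were not counted here either. Among them AK109775, like At5g23190, was 2.75-fold lower in FR13A and 1.76-fold lower in IR24, while AK110659 rose in both. AK109504, like CYP94A5, fell by 1.71 in FR13A and fell by 1.22 in IR24 (-2.89 and -2.77 with the processed signals), where the call ended without either constitutive or either 24 h array (adjusted p 0.0632 to 0.0984). AK070931, like CYP94A4, fell by 0.88 in FR13A (adjusted p = 0.0488), with -0.20 in IR24, and this call ended without either constitutive or either 24 h array (adjusted p 0.0864 to 0.385). In Arabidopsis, CYP94 enzymes also oxidise the active jasmonate. AK100163, like CYP81B1, of a family with herbicide-metabolising members in grasses, fell by 1.04 in FR13A (adjusted p = 0.0076) and fell by 1.09 in IR24 (adjusted p = 0.00581). The IR24 call ended without constitutive replicate 1 (adjusted p = 0.0772) or 24 h replicate 1 (adjusted p = 0.051). None of the 5 phenylpropanoid and flavonoid probes was called at 24 h, with AK104994, like CYP73, at -0.95 ± 0.65 in FR13A and 0.30 ± 0.65 in IR24. AK066680, like CYP97B2, of a carotenoid hydroxylase family, had 0.39 in FR13A and 0.02 in IR24, and was not called.

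Genes that work with P450s were described from lists of description patterns. Enzymes of P450 type whose description lacks the word had 0 of 9 rise and 4 fall at 24 h in FR13A, and 2 rise and 2 fall in IR24. Among them, AK066138, rice allene oxide synthase, which makes the precursor of jasmonate, rose by 0.97 in IR24 (adjusted p = 0.0152, and 0.0906 to 0.173 without either constitutive array or 24 h replicate 2). AK105694, like fatty acid hydroperoxide lyase of barley, which makes leaf aldehydes, fell by 1.29 in FR13A (adjusted p = 0.00541, 0.081 without constitutive replicate 2 and 0.073 without 24 h replicate 1). With the processed signals AK105694 had -2.80. AK064736, like a flavonoid 3-hydroxylase, fell by 1.84 in FR13A (adjusted p = 0.00275) and fell by 1.15 in IR24 (adjusted p = 0.0289). Its FR13A call ended without constitutive replicate 1 (adjusted p = 0.0505) or 24 h replicate 1 (adjusted p = 0.06), and its IR24 call without either constitutive or either 24 h array (adjusted p 0.139 to 0.252). None of the 6 electron partners was called in either genotype, and 2 of 8 haem synthesis probes fell in each. Conjugating enzymes and exporters, which act on P450 products, had 5 rise and 16 fall of 152 in FR13A and 5 rise and 14 fall in IR24, which puts the fallen at 10.5% and 9.21%. Of all probes, 4.46% rose and 5.9% fell in FR13A, and 4.79% rose and 4.64% fell in IR24. Of the conjugating group, AK071136, like the bean UDP-glucosyltransferase HRA25, fell by 4.53 in FR13A and fell by 4.36 in IR24, and AK061233, the glutathione transferase OsGSTU10, rose by 1.65 in FR13A and by 1.96 in IR24, or 3.25 in IR24 with the processed signals. Phenylpropanoid partners had 3 rise and 7 fall of 33 in FR13A and 2 rise and 3 fall in IR24, with 21.2% and 9.09% fallen, and terpene partners had 1 of 9 fall in FR13A and 0 called in IR24.

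The 2 probes described as P450 reductases, AK102060 and AK099083, had genotype averages of 0.05 and -0.02 and were not called. At 24 h AK102060 had -0.16 in FR13A and -0.24 in IR24 (adjusted p = 0.715 and 0.55). Of the 3 cyclophilins, OsCyp3, AK072675, rose at 24 h by 1.19 in FR13A (adjusted p = 0.00485) and by 0.80 in IR24 (adjusted p = 0.0334). Without 24 h replicate 1 its adjusted p was 0.0688 in FR13A and 0.157 in IR24, and the IR24 call also ended without constitutive replicate 2 (adjusted p = 0.238) or 24 h replicate 2 (adjusted p = 0.219). The Cyp2 probe AK061894 changed sign with the dye orientation on every pair of arrays, with ratios of -1.27 and 1.09 in constitutive plants, -0.19 and 0.93 at 15 min and -0.90 and 1.52 at 24 h, and the Cyp1 probe AK103109 averaged 0.00 between the genotypes.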

How the data were processed

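The deposited array files hold, per the file headers, mean spot and median local background intensity in Cy3 and Cy5, processed signals and a log10 ratio. Agilent Feature Extraction 8.1 is given by the submitters' processing notes. The deposited table of the series holds log10 ratios of FR13A over IR24 with medians of 0, checked against the scanner ratios. Intensities were corrected with normexp (offset 50) and loess in limma 3.58.1 under R 4.3.3, with control spots at weight 0 and marked spots missing, which gave log2 ratios and log2 intensities computed from the deposited intensities. Because of the offset, fold changes of dim probes are understated. Probes with a signal well above background in either dye on 2 or more of the 6 arrays were kept, 20315 of 21495.

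Genotype differences were fitted on log2 ratios with 1 mean per time (3 residual degrees of freedom). Changes over time used limma's separate-channel fit on 12 channels after Aquantile normalisation (intraspot correlation 0.493, 18907 probes). All tests were two-sided, adjusted by the Benjamini-Hochberg method across every probe in a comparison. The fits were run on simulated data with independent noise between arrays. That run checked the computation, not whether these arrays meet the assumptions of the fits. Members and gene lists were chosen with earlier results of these data known. For each comparison the text names from up to 12 called probes in each direction, the 10 smallest p where under 5 were called, the brightest probe of each CYP family, every reductase, and up to 3 members of each partner list. Cyclophilins, AK101670 and probes that share a description with a named one were added by description. RefSeq's gene table matched 0 array accessions, so no coordinates or sequences are given; OsDWARF is CYP85A1 there. Alternatives were other background and normalisation settings, filters, dye, scan day and replicate terms, and leaving out each array.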

Additional observations from a re-analysis of the deposited data

How the results depend on the processing

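Over 3517 recomputed values of reported probes, partner genes included, 2976 kept their direction and side of the threshold, 539 lost a call, 1 gained one and 1 changed sign: the change of the AK102040 ratio from constitutive to 15 min, not called either way, was 0.0165 with median centring. No called value changed sign. With median centring in place of loess, 10 P450 probes were called between genotypes on average, 1 in constitutive plants, 1 at 15 min and 3 at 24 h. Of the 76 genotype calls 15 were kept, and the cause was not tested. The share of all probes called in that setting is not given. The IR24 count at 15 min was 1 with the processed signals, with a dye term and with scan day as a block. A dye term ended 21 of 121 calls over time, and scan day as a block ended 15 of 121 over time and 16 of 76 between genotypes, where the replicate block ended 3 and 10. The processed signals moved 25 of 76 genotype values and 30 of 121 values over time by more than 1.5 times. They carry no offset, but also differed from the main fit in background correction and in having no loess. Without background subtraction, which adds no offset either, 0 of 76 genotype values moved that far.

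Leaving out each array gave 22 to 30 calls between genotypes on average, 1 to 15 in constitutive plants, 4 to 7 at 15 min and 4 to 11 at 24 h. Over time it gave 0 to 2, 12 to 23 and 12 to 20 in FR13A for 15 min over constitutive, 24 h over constitutive and 24 h over 15 min, and 1 to 2, 11 to 24 and 13 to 22 in IR24. Changes of the ratio had 0 calls throughout. Where an array was left out, its partner was assumed to vary like the other groups.

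The replicate number is also the dye orientation, and the main fits did not take the numbers as pairs. Correlations of same-numbered deviations were 0.099 for constitutive with 15 min and 0.059 for constitutive with 24 h. For 15 min with 24 h the correlation was 0.402. Same-numbered arrays of these last times also shared a scan day, and the source of the higher value was not tested. With the replicate block 32 probes were called on average, 15, 12 and 12 at the 3 times, 1, 21 and 22 over time in FR13A and 2, 22 and 24 in IR24, and 0 for changes of the ratio.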
